A study of Homo sapiens with 8 samples.

Results

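The 7 genes described here encode surface ligands that natural killer (NK) cells read on leukemia cells. They were taken by symbol from the deposited table, as 7 of its 60664 genes: MICA, MICB, ULBP1, ULBP2, ULBP3, PVR and NECTIN2. RNA was sequenced from THP-1 cells, an acute monocytic leukemia line, and from a DAC-resistant line derived from it. Each line received the solvent DMSO or 1 µM DAC for 6 days. There were 2 libraries in each of 4 groups: parental cells with DMSO, parental cells with DAC, DAC-resistant cells with DMSO and DAC-resistant cells with DAC. DAC (decitabine) is a cytidine analogue that is built into DNA and traps DNA methyltransferases, so that CpG methylation is lost as cells divide. The labels give both lines as wild type. The resistant line was made by pulses of DAC over several months and then kept without the drug for some weeks before the experiment. The methods do not state that it is a single clone, and 1 resistant line is analysed here. The labels call the replicates biological, without saying whether they came from separate cultures, so p-values measure only the spread between these libraries.

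NKG2D is an activating receptor of NK cells and of many CD8 T cells. Its human ligands are MICA and MICB, encoded within the MHC, and the ULBP family, encoded by the RAET1 locus on the long arm of the same chromosome. These ligands resemble MHC class I molecules, are scarce on most healthy cells and appear on stressed, infected or transformed ones. They can also be cut from the surface by metalloproteases, after which the soluble form can blunt NKG2D. PVR (CD155) and NECTIN2 (CD112) are adhesion molecules of the nectin family. Both bind the activating receptor DNAM-1 (CD226), and both are also bound by inhibitory receptors, TIGIT for both, CD96 for PVR and PVRIG for NECTIN2. MHC class I molecules, in contrast, are read by inhibitory NK receptors.

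Between 27471083 and 31903919 reads per library lay on genes, and the least deep libraries were those of parental cells with DAC. Levels are given in FPKM, reads scaled by exon length and by the total of the library, which allows genes to be set side by side per length. Of 10 monocytic marker genes, 7 were at 1 FPKM or more in all 8 libraries, and their summed level was 285 to 291 FPKM in parental DMSO, 340 to 342 in parental DAC, 382 to 398 in resistant DMSO and 396 to 416 FPKM in resistant DAC libraries. CTSG, a granule protease of immature myeloid cells, was at 105.0, 51.4, 277.0 and 289.0 FPKM on average in that order of groups. Of the 10, 8 rose with DAC in parental cells, CD14 by 3.05 and LYZ by 1.91 on the log2 scale, and CD33 and CTSG fell, beside 33.6% and 24.1% of all genes, while none was called with DAC in resistant cells. In resistant against parental cells, 7 were lower and 1 higher with DMSO, beside 26.2% and 31.3% of all genes, and 9 were lower and 1 higher with DAC, beside 35.1% and 32.0%, CTSG being the higher one in both. Of 8 NK cell markers, NCAM1 and NKG7 were at 1 FPKM or more throughout, with list sums of 22.8 to 25.2, 29.1 to 30.4, 33.1 to 34.1 and 36.3 to 37.7 FPKM in the same order of groups. The tested markers went different ways, NCAM1 being lower (−0.72) and NKG7 higher (1.41) with DAC in parental cells, while NCAM1 was higher (0.83) and NKG7 lower (−1.06) in resistant than in parental cells with DMSO, and likewise with DAC (1.70 and −2.51). PRF1 reached 1 FPKM in parental DAC libraries only, and NCR1, KLRD1, GNLY and GZMB had at most 9 reads in any library. The 6 markers of T and B cells summed to 0.725 to 4.48 FPKM over all libraries, and the 6 of epithelial and stromal cells, mostly PECAM1, to between 18.3 FPKM in resistant DAC and 64.4 FPKM in parental DAC libraries. No marker list had a gene at 0 in all 8 libraries, and the part of these shifts in the results below was not tested. RNA was taken from whole cultures, so fewer cells expressing a gene and less RNA per cell cannot be told apart.

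The members lie in 3 places of the genome (GRCh38, as in the deposited gene identifiers). MICA (chr6:31399784-31415315) and MICB (chr6:31494881-31511124) lie within 111 kb of each other on the plus strand of chromosome 6. ULBP2 (chr6:149942014-149949235) and ULBP1 (chr6:149963943-149973715), both on the plus strand, and ULBP3 (chr6:150061053-150069121), on the minus strand, share 127 kb of the same chromosome. PVR (chr19:44643798-44666162) and NECTIN2 (chr19:44846175-44889223) share 245 kb on the plus strand of chromosome 19. All 7 are protein coding. Over the 250 bases before the RefSeq start, the MICA and MICB sequences were identical at 210 of 254 aligned positions (82.7%). The next most similar pair, ULBP3 and NECTIN2, reached 50.7%. The stretches below are from the RefSeq promoter table (GRCh38.p14), which held all 7 members, and are read 5′ to 3′ on the gene's own strand. MICA and MICB are shown because they differed most between the lines in DMSO. In both, capitals mark the core of a heat shock element (GAANNTTC, on either strand, in 5.85% of 27305 RefSeq promoters of this length) and a GC box (GGGCGG, on either strand, in 42.3%). The 30 bases begin 135 bases before the start of MICA (chr6:31403460-31403489) and 139 bases before that of MICB (chr6:31498006-31498035), and the MICA stretch lies inside an exon of other annotated MICA transcripts.
MICA: GAATTTTCtcttccaagcgtggccCCGCCC
MICB: GAATTTTCtcttctgaacgtggccCCGCCC

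ULBP1 (chr6:149963693-149963942) and ULBP2 (chr6:149941764-149942013) are shown because their fitted DAC changes in parental cells had opposite signs, although only ULBP1 passed the test. Capitals mark the core letters of a cAMP response element (TGACG, on either strand). Each of the pair held 3 such sites. At least 3 occur in 1.04% of the promoters, and at least 1 in 21.7%. These sites begin 89, 67 and 51 bases before the start of ULBP1, and 115, 83 and 66 bases before that of ULBP2.
ULBP1: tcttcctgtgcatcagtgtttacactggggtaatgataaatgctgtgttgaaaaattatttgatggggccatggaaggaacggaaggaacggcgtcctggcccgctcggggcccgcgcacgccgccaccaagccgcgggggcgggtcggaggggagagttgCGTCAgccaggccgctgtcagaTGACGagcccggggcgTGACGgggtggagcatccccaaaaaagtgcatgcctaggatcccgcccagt
ULBP2: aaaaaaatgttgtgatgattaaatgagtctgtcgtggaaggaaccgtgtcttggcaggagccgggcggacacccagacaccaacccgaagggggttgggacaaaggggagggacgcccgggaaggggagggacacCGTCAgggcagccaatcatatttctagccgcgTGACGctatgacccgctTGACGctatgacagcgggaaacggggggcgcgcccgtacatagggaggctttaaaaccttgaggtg

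NECTIN2 is shown because it had the largest rise with DAC among the members. The stretch of 128 bases (chr19:44846047-44846174) ends where the annotated gene begins, and capitals mark CpG dinucleotides.
NECTIN2: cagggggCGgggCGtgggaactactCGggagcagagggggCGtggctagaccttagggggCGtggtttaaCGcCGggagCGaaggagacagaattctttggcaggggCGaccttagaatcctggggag

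The 7 promoters held more CpG than the median promoter, with 17 (MICA), 18 (MICB), 20 (ULBP1), 18 (ULBP2), 22 (ULBP3), 27 (PVR) and 19 (NECTIN2) in 250 bases, beside a median of 11 over the 27305 promoters. Between 61.2% (MICA) and 72.4% (ULBP3) of all promoters held fewer CpG than 6 of the members, and 82.7% held fewer than PVR. A GC box was found in 6 of the 7 members, with 6 copies in ULBP3 and none in PVR. The letters of an E2F core (TTTCCCGC, either strand) occurred in ULBP2 alone among the members and in 1.42% of all promoters. A CCAAT box (CCAAT, either strand) occurred in MICA, MICB and ULBP2 and in 33.0% of all promoters. The letters searched for an AP-1 site (TGANTCA) and for a composite site of C/EBP and ATF (TGATGNAA) were in none of the 7 windows. In the stretches of MICA, MICB, ULBP1 and ULBP2 no site in capitals overlapped a match of another motif searched, while in NECTIN2 the CpG that begins 243 bases before the start lies within a GC box that begins at 246. These matches describe the sequences only. No methylation or binding data were analysed here, and the sequences were not tested against the levels.

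All 7 members were detected in all 8 libraries, with between 60 reads (ULBP3) and 2678 reads (NECTIN2) per library. NECTIN2 had the highest level in each library and ULBP3 the lowest. In parental cells with DMSO, the order of the mean levels was NECTIN2 (13.0 ± 0.364 FPKM, SD, n = 2), ULBP1 (9.55 ± 0.834), PVR (6.42 ± 0.341), ULBP2 (5.67 ± 0.606), MICB (5.38 ± 0.188), MICA (2.91 ± 0.465) and ULBP3 (1.28 ± 0.0473). The libraries of ULBP2 and MICB overlapped in that group. In resistant cells with DMSO, MICB (13.4 ± 1.92) and MICA (8.79 ± 0.519) followed NECTIN2 (18.2 ± 1.44). Below them PVR (6.17 ± 0.943), ULBP1 (5.91 ± 0.118) and ULBP2 (5.63 ± 0.562) had overlapping libraries, and ULBP3 (0.703 ± 0.0716) was again last. ULBP1 was thus the most abundant NKG2D ligand transcript in parental cells with DMSO, whereas MICB was in resistant cells with either treatment. In parental cells with DAC, MICB (8.2 FPKM) and ULBP2 (8.13 FPKM) had the highest means of the NKG2D ligands, with overlapping libraries. The place of PVR in these orders depends on its length. The same PVR reads divided by the longer exon length of the annotation used here give 3.61 and 3.89 FPKM in parental DMSO libraries, below MICB. In resistant DMSO libraries they give 3.22 and 4.0 FPKM, below ULBP1 and ULBP2. Reads that a count over the longer length could add are not in these values.

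**Figure D1:**
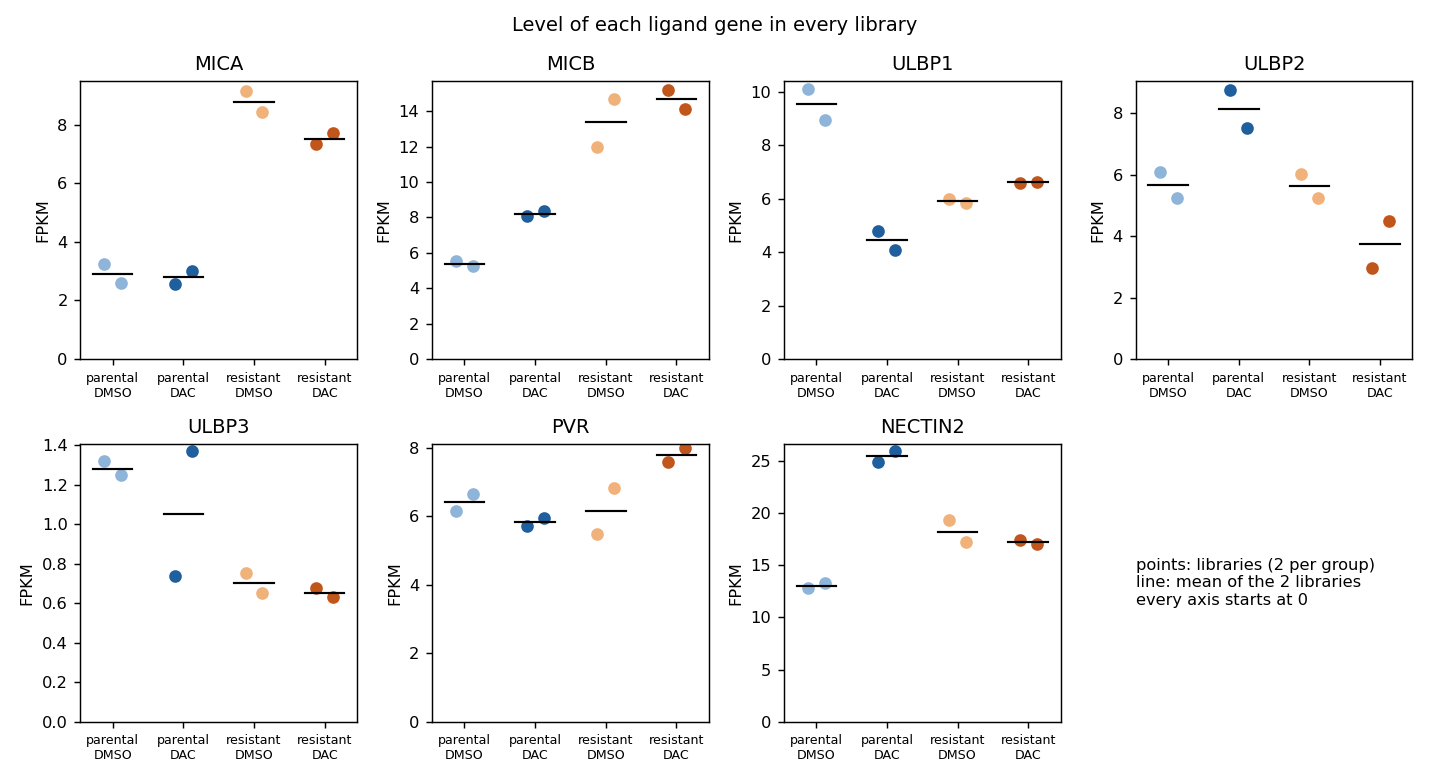
Level of each ligand gene (FPKM, vertical axis from 0) in the 2 libraries (points) of each of the 4 groups, with their mean (line). MICA and MICB sit higher in all resistant libraries than in all parental ones, while ULBP1 and NECTIN2 are farthest apart between the parental DMSO and parental DAC groups.

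The first question was whether DAC changes these ligands in parental cells. The nectin family member NECTIN2 and the NKG2D ligand MICB rose, and the NKG2D ligand ULBP1 fell. These were 3 of the 7 members, and limma called 57.7% of the 14899 genes tested in this comparison at an adjusted p under 0.05, so that 3 of 7 is no more than the share over all genes. The median log2 fold change was −0.04 over the members and 0.06 over all genes tested. Fold changes are differences of log2(FPKM + 1), which understates the change of low genes.

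NECTIN2 was at 12.8 and 13.3 FPKM in the parental DMSO libraries and at 24.9 and 26.0 FPKM in the parental DAC libraries. Both DAC libraries were well above both DMSO libraries, with a ratio of the means of 1.96. The log2 fold change was 0.92 ± 0.056 (SE; limma, adjusted p = 2.4e-05), the highest among the members. ULBP1 was at 10.1 and 8.96 FPKM with DMSO and at 4.8 and 4.08 FPKM with DAC. DAC left the transcript at 0.465 times its DMSO level, with no overlap of the libraries. Its log2 fold change was −0.96 ± 0.081 (limma, adjusted p = 0.0001). MICB was at 5.51 and 5.25 FPKM with DMSO and at 8.05 and 8.36 FPKM with DAC. The libraries did not overlap, and the means stood in a ratio of 1.53. MICB had a log2 fold change of 0.53 ± 0.091 (limma, adjusted p = 0.0026).

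The other 4 members did not pass the test in parental cells. ULBP2, a GPI-anchored NKG2D ligand, was at 6.09 and 5.24 FPKM with DMSO and at 8.75 and 7.52 FPKM with DAC. Its libraries did not overlap, yet the log2 fold change of 0.45 ± 0.164 had an adjusted p of 0.052 in limma, and voom on the reads behind the values put it at 0.011. MICA was at 3.23 and 2.58 FPKM with DMSO and at 2.57 and 3.02 FPKM with DAC, and the groups overlapped. The log2 fold change of MICA was −0.04 with a 95% interval of −0.28 to 0.20 (limma, adjusted p = 0.76). PVR was at 6.17 and 6.66 FPKM with DMSO and at 5.73 and 5.94 FPKM with DAC, a log2 fold change of −0.12 (95% interval −0.34 to 0.10; limma, adjusted p = 0.31). ULBP3 was at 1.32 and 1.25 FPKM with DMSO and at 0.737 and 1.37 FPKM with DAC. Its 2 DAC libraries lay on either side of the DMSO libraries, and without parental DAC replicate 2 the adjusted p of ULBP3 was 0.02 in limma, with a log2 fold change of −0.40, the 1 parental DAC library left being assumed to vary like the other groups.

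The second question was whether DAC changes these genes in DAC-resistant cells. None of the 7 members was called by limma, where 11.2% of the 14899 genes were. At an unadjusted p under 0.05 the count was 2 (PVR and ULBP2), and voom also called 2. The median log2 fold change was −0.04 over the members and 0.01 over all genes. This comparison shares no library with that in parental cells.

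PVR, the ligand of DNAM-1, TIGIT and CD96, was at 5.50 and 6.84 FPKM in resistant DMSO and at 7.59 and 8.0 FPKM in resistant DAC libraries. The DAC libraries were above both DMSO libraries, which were far apart from each other. The log2 fold change was 0.30 ± 0.091 (limma, unadjusted p = 0.014, adjusted p = 0.088). Without resistant DMSO replicate 2 it was 0.44, against the 1 resistant DMSO library left, which has no spread of its own. ULBP2 was at 6.03 and 5.23 FPKM with DMSO and at 2.96 and 4.50 FPKM with DAC. Its libraries did not overlap, but the DAC libraries rested on 126 and 184 reads. The log2 fold change of ULBP2 was −0.51 ± 0.164 (limma, unadjusted p = 0.02, adjusted p = 0.11), and voom gave −0.63 at an adjusted p of 0.032.

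The remaining members varied little between resistant DMSO and resistant DAC libraries. NECTIN2 was at 19.3 and 17.2 FPKM with DMSO and at 17.4 and 17.0 FPKM with DAC, and its log2 fold change of −0.08 had a 95% interval of −0.21 to 0.06. ULBP1 was at 5.99 and 5.82 FPKM with DMSO and at 6.59 and 6.63 FPKM with DAC. This is a log2 fold change of 0.14 with a 95% interval of −0.05 to 0.33. The intervals of NECTIN2 and ULBP1 leave out changes of the size that either gene had in parental cells. MICB was at 12 and 14.7 FPKM with DMSO and at 15.2 and 14.1 FPKM with DAC, with overlapping libraries and an interval of −0.09 to 0.35. MICA was at 9.16 and 8.42 FPKM with DMSO and at 7.34 and 7.71 FPKM with DAC. Both DAC libraries of MICA were lower, at a log2 fold change of −0.20 ± 0.10 (limma, adjusted p = 0.26). ULBP3 stayed at 0.754 and 0.652 FPKM with DMSO and 0.675 and 0.630 FPKM with DAC.

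**Figure D2:**
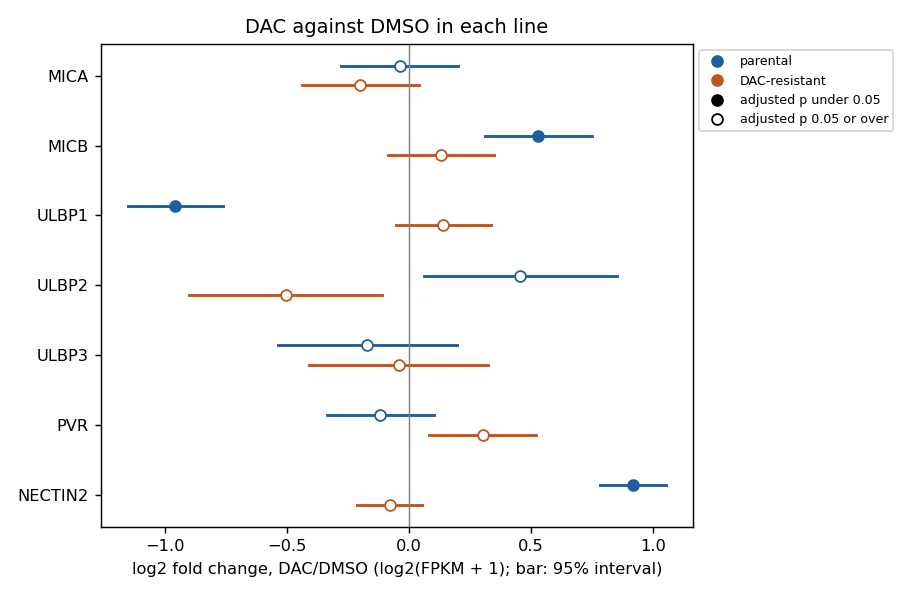
Log2 fold change of DAC against DMSO (horizontal axis, log2(FPKM + 1) scale) for each ligand gene in parental (blue) and DAC-resistant (orange) cells, with 95% intervals and filled points at an adjusted p under 0.05. NECTIN2 (0.92), MICB (0.53) and ULBP1 (−0.96) are filled in parental cells, and no point is filled in resistant cells.

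The difference between the DAC effects of the lines was tested directly, as an interaction in the same fit. It was called for 5 of the 7 members, beside 49.3% of all genes tested. For ULBP1 the DAC effect was 1.10 higher in resistant than in parental cells on the log2 scale (SE 0.114; limma, adjusted p = 0.00038), and for PVR it was 0.42 higher (SE 0.129; limma, adjusted p = 0.034). For NECTIN2 it was lower, at −1.0 (SE 0.079; limma, adjusted p = 0.00012), for ULBP2 at −0.96 (SE 0.232; limma, adjusted p = 0.014) and for MICB at −0.40 (SE 0.128; limma, adjusted p = 0.04). ULBP2 and PVR therefore had fitted DAC effects of opposite sign in the 2 lines, none of which passed the test within a line. MICA (−0.16, 95% interval −0.50 to 0.18) and ULBP3 (0.13, 95% interval −0.39 to 0.65) were not called.

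The calls of ULBP1 and NECTIN2 held without any 1 of the 8 libraries, and those of MICB, PVR and ULBP2 did not. The count fell to 3 without parental DMSO replicate 1 or 2, parental DAC replicate 2, or resistant DAC replicate 1 or 2, and to 2 without parental DAC replicate 1. MICB lost its call without 7 of the 8 libraries, at adjusted p-values between 0.056 and 0.12 in limma, and also with TPM (0.055), quantile (0.081) and upper-quartile scaling (0.097). PVR lost its call without any 1 of the parental libraries or of the resistant DAC libraries, at adjusted p-values between 0.054 and 0.1. The call of ULBP2 was lost without parental DAC replicate 1 (limma, adjusted p = 0.06).

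The third question was how the lines differ without the drug. The MHC-encoded ligands MICA and MICB were higher in resistant cells, as was NECTIN2, and ULBP1 was lower. These were 4 of 7 members, beside 57.5% of all genes tested. This comparison and the one in parental cells share the parental DMSO libraries.

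MICA was at 3.23 and 2.58 FPKM (395 and 301 reads) in parental and at 9.16 and 8.42 FPKM (1113 and 975 reads) in resistant DMSO libraries. The lowest resistant library was far above the highest parental one, and the ratio of the means was 3.02. MICA had the largest line difference of the members, with a log2 fold change of 1.33 ± 0.10 (limma, adjusted p = 6e-05). MICB was at 5.51 and 5.25 FPKM in parental and at 12 and 14.7 FPKM in resistant DMSO libraries. The means stood in a ratio of 2.48 and the libraries did not overlap, although the resistant libraries differed more from each other than the parental ones did. Its log2 fold change was 1.17 ± 0.091 (limma, adjusted p = 6.9e-05).

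NECTIN2 was at 12.8 and 13.3 FPKM in parental and at 19.3 and 17.2 FPKM in resistant DMSO libraries. The resistant libraries were higher without overlap, and stood between the parental DMSO and the parental DAC libraries. The log2 fold change of NECTIN2 was 0.45 ± 0.056 (limma, adjusted p = 0.00056). ULBP1, at 10.1 and 8.96 FPKM in parental DMSO libraries, was at 5.99 and 5.82 FPKM in resistant ones. It too stood between the parental DMSO and parental DAC values, with a ratio of 0.619 to parental cells. Its log2 fold change was −0.61 ± 0.081 (limma, adjusted p = 0.00079). ULBP3 was at 1.32 and 1.25 FPKM in parental and at 0.754 and 0.652 FPKM in resistant DMSO libraries, with no overlap and a log2 fold change of −0.42 ± 0.153 (limma, adjusted p = 0.051). It was called lower with upper-quartile scaling (adjusted p = 0.033), with only the compared libraries (0.015) and by voom (0.015), which put the log2 fold change at −0.87. ULBP3 passed the filter of 1 FPKM in 2 libraries only through parental libraries. ULBP2 (log2 fold change −0.01, 95% interval −0.40 to 0.39) and PVR (−0.05, 95% interval −0.27 to 0.16) had overlapping libraries.

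With DAC in both lines, 6 of the 7 members differed between resistant and parental cells, all but ULBP3, beside 67.0% of all genes tested. MICA (1.17 ± 0.10 on the log2 scale; limma, adjusted p = 7e-05) and MICB (0.77 ± 0.091; limma, adjusted p = 0.00034) were again higher in resistant cells. ULBP1 was also higher, at 0.49 ± 0.081 (limma, adjusted p = 0.0017), the opposite direction from that in DMSO. NECTIN2 turned the other way and was lower in resistant cells with DAC, at −0.54 ± 0.056 (limma, adjusted p = 0.00017). ULBP2, at 8.75 and 7.52 FPKM in parental and 2.96 and 4.50 FPKM in resistant DAC libraries, was lower by 0.97 on the log2 scale as fitted (log2 fold change −0.97 ± 0.164; limma, adjusted p = 0.0019). PVR was higher by 0.36 ± 0.091 (limma, adjusted p = 0.011), a call that was lost without parental DAC replicate 1 (adjusted p = 0.063 in limma) or resistant DAC replicate 2 (0.058). Without parental DAC replicate 1, ULBP3 was called lower (log2 fold change −0.52, limma, adjusted p = 0.0062), under the same assumption on the library left and for a gene that passed the filter only through parental libraries.

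**Figure D3:**
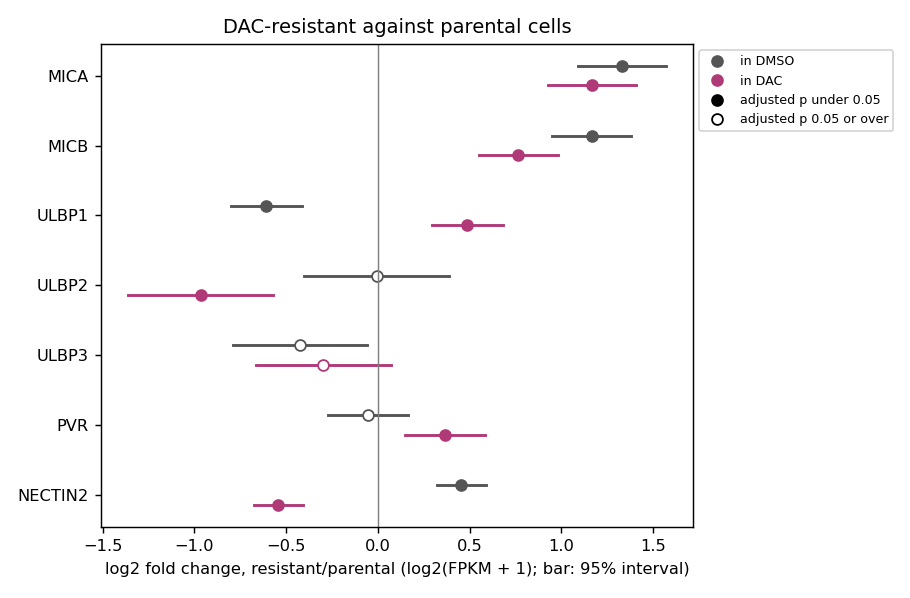
Log2 fold change of DAC-resistant against parental cells (horizontal axis, log2(FPKM + 1) scale) for each ligand gene in DMSO (grey) and in DAC (magenta), with 95% intervals and filled points at an adjusted p under 0.05. MICA and MICB lie right of 0 under both treatments, and ULBP1 and NECTIN2 lie on opposite sides of 0 in DMSO and in DAC.

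The NKG2D ligand transcripts differed between the lines in both sum and make-up. The FPKM of the 5 NKG2D ligand genes added up to 26.3 and 23.3 in parental DMSO, 24.9 and 24.4 in parental DAC, 33.9 and 34.8 in resistant DMSO and 32.8 and 33.6 in resistant DAC libraries. MICA and MICB together made up 33.3% and 33.6% of that sum in parental DMSO libraries, and 42.6% and 46.7% in parental DAC libraries. In resistant cells their share was 62.4% and 66.4% with DMSO and 68.8% and 65.0% with DAC. ULBP1 alone held 38.5% of the sum in both parental DMSO libraries and between 16.7% and 20.1% in the other 6. On the DNAM-1 side, the level of NECTIN2 was 2.07 and 2.00 times that of PVR in parental DMSO and 4.35 and 4.39 times in parental DAC libraries. It was 3.5 and 2.52 times that of PVR in resistant DMSO and 2.29 and 2.12 times in resistant DAC libraries. With the same PVR reads divided by its annotated exon length, the ratios are 3.54 and 3.41, 7.44 and 7.5, 5.99 and 4.31, and 3.92 and 3.63 in the same order of groups. No reads were recounted over that length. These sums and ratios are descriptions of the same values and were not tested.

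Some sequence of the members also occurs in other genes, and how many reads this affects was not measured. Of the 50-base windows of the ULBP2 transcripts, 32.6% also occur in other genes, mainly RAET1L and RAET1G. The same holds for 11.1% of those of ULBP3, mainly in RAET1K, ULBP1 and KIAA0825, and for 8.13% of those of ULBP1, mainly in RAET1K and ULBP3. RAET1L had 0 reads in all 8 libraries, RAET1G and RAET1E had at most 12, and RAET1K, a pseudogene, had 14 to 37, so that all 4 other genes of the RAET1 family were under the filter. For MICA and MICB 1.86% and 2.86% of the windows were shared with other genes. PVR shares 20.6% of its annotated exon bases with other genes, chiefly ENSG00000279095 on the same strand, and its values were scaled by a length of 6098 bases where the annotation used here gives 10427. The counting's strand setting was not stated.

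Genes around the members gave a description of the 3 places that the choice of members did not use; the window of 500 kb was chosen after the data were seen. Around MICA and MICB, 49 other genes were tested, and 26 of them were higher and 2 lower in resistant than in parental cells with DMSO, with a median log2 fold change of 0.31 beside 0.02 over all genes. The share called, 57.1%, was near the 57.5% of all genes, and 53.1% of these neighbours were higher and 4.08% lower beside 31.3% and 26.2% of all genes. With DAC in both lines 28 were higher and 11 lower there, with a median of 0.29 beside −0.03, which is 57.1% and 22.4% beside 32.0% and 35.1% of all genes. Around the ULBP genes 3 of 13 were higher and 2 lower in DMSO, with a median of 0.04, so that 38.5% were called. Around PVR and NECTIN2, 13 of 23 rose and 3 fell with DAC in parental cells, with a median of 0.28 beside 0.06 over all genes. These are 56.5% and 13.0%, beside 33.6% and 24.1% of all genes. In resistant cells 1 rose and 2 fell, 13.0% beside 11.2% of all genes. Some of these neighbours are not separate from a member or from each other. A Y RNA gene (1.43 between the lines in DMSO) shares 94 exon bases with MICA on the other strand. CEACAM19 shares 121 exon bases with PVR, and MSH5-SAPCD1 was counted beside MSH5 and SAPCD1. How many reads this affects was not measured.

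The MHC class I genes HLA-B, HLA-C and HLA-E lie on the same arm of chromosome 6, and HLA-B and HLA-C are among the genes counted around MICA. All 3 were higher with DAC in parental cells, from a log2 fold change of 0.63 for HLA-B to 0.89 for HLA-E, and all 3 were higher in resistant than in parental cells with DMSO, from 0.75 for HLA-B to 1.30 for HLA-E. Over all genes 33.6% and 31.3% were called higher in these comparisons. None passed the test with DAC in resistant cells by limma, although voom called 1 higher. HLA-E, which presents leader peptides to the inhibitory receptor NKG2A, was at 46.6 FPKM on average in parental DMSO, 87.2 in parental DAC, 116.0 in resistant DMSO and 123.0 in resistant DAC libraries. MICA, with a DAC effect of −0.04 in parental cells, was not tested against them.

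Of 20 ligands of other NK receptors, 14 passed the filter. CD86 and CD80, both co-stimulatory ligands, and SLAMF7, a receptor that binds its own kind on NK cells, passed it through the parental DAC libraries alone, at 8.88, 2.1 and 4.41 FPKM on average there and under 0.5 FPKM in every other library, so that they had to differ from that group. Among the other 11, 7 rose and 2 fell with DAC in parental cells, with a median log2 fold change of 0.23 beside 0.04 over all genes treated likewise. These are 63.6% and 18.2%, beside 31.3% and 24.7% of the 14021 genes that reached 1 FPKM in more than 1 group. ICAM1, the ligand of LFA-1, rose by 1.13 on the log2 scale. NCR3LG1, the B7-H6 ligand of the activating receptor NKp30, was lower by −0.99, from 12.4 to 5.76 FPKM on average. In resistant cells with DAC, CD70, the ligand of CD27, fell (log2 fold change −0.23) and the other 13 were not called, beside 11.2% of all genes. The call of CD70 was lost without any 1 of the 4 resistant libraries. In DMSO, 2 of the 14 were higher and 8 lower in resistant than in parental cells, beside 31.3% and 26.2% of all genes. Among the lower ones, CLEC2D and SLAMF6 passed the filter only through parental libraries, so that their calls support no direction. CD58, the ligand of CD2, had the lowest log2 fold change of the 14 (−1.49, 10.6 FPKM in parental and 3.12 FPKM in resistant DMSO libraries on average). Without parental DMSO replicate 2, or resistant DMSO replicate 1 or 2, the count of lower genes was 5.

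Genes that act on ligands at the surface were called higher with DAC in parental cells in 9 of 9 cases, with a median log2 fold change of 0.55. Over all genes 33.6% were called higher and 24.1% lower in this comparison, with a median of 0.06. The gelatinase MMP9 rose most, from 1.16 FPKM on average with DMSO to 116.0 FPKM with DAC, by 5.77 on the log2 scale. MMP14, which can shed MICA, rose by 1.52, the metalloprotease inhibitor TIMP1 by 1.38 and ADAM9 by 0.70. The sheddases ADAM10 and ADAM17 rose by 0.50 and 0.28, and PDIA6, which opens a disulfide of MICA before it is cut, by 0.55. The list holds inhibitors of shedding as well as proteases, so that its count has no single direction for the ligands. In resistant cells with DAC, 2 rose and 2 fell, beside 11.2% of all genes called, with a median of −0.06. None was called higher without resistant DMSO replicate 2 or either resistant DAC library, and at most 1 was called lower without any 1 of the 4 resistant libraries. MMP9 stayed at 1.38 FPKM with DMSO and 1.25 FPKM with DAC on average. Between the lines in DMSO, 4 of the 9 were higher and 3 lower in resistant cells, beside 31.3% and 26.2% of all genes. TIMP3, an inhibitor of ADAM17, was higher by 1.47, at 181.0 against 64.6 FPKM on average, as were ADAM9 (0.56) and PDIA6 (0.50), while TIMP1 (−0.41), MMP14 (−0.23) and ADAM10 (−0.20) were lower. The interaction was called lower in resistant cells for 8 of the 9 genes, as it was for 28.4% of all genes.

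Of 15 genes known to act on NKG2D ligand transcription, 5 rose and 6 fell with DAC in parental cells, with a median log2 fold change of −0.05. That is 73.3% called, beside 57.7% of all genes. With upper-quartile scaling 2 rose and 8 fell, since E2F3, SP3 and RELA lost their calls and E2F2 and SP1 were called lower. STAT3 rose by 0.70 and NFKB1 by 0.45, while MYC was lower (−0.88) and so was E2F1 (−0.42). The count of higher genes was 3 without parental DMSO replicate 1 and 2 without parental DAC replicate 2. HSF1, the heat shock factor, was lower (−0.19), a call that was lost without parental DMSO replicate 1 or 2 or parental DAC replicate 1 (adjusted p between 0.061 and 0.094 in limma), and HSF2 was not called. The count of lower genes was 4 without any 1 of these 3 libraries. In resistant cells with DAC, none rose and 3 fell, E2F1 (−0.39), E2F2 (−0.28) and CHEK2 (−0.27), beside 11.2% of all genes called. By voom 6 fell, with ATR, CHEK1 and STAT3 called as well. The count of lower genes was 1 without resistant DMSO replicate 1 or resistant DAC replicate 1, and 0 without resistant DAC replicate 2. Between the lines in DMSO, 3 were higher and 3 lower in resistant cells, among them E2F3 (1.07), CHEK2 (0.82) and NFKB1 (−1.33). This is 40.0%, beside 57.5% of all genes. With TPM, SP1, MYC and RELA were called higher as well. CHEK1, E2F2 and HSF1 were called lower as well with quantile and with upper-quartile scaling. Either count thus reached 6 under another scaling. Neither the DNA damage kinase ATR (0.01) nor HSF1 (−0.10) was called in that comparison without a change of scaling. HSF1 was at −0.20 with quantile normalization (limma, adjusted p = 0.022) and with upper-quartile scaling (limma, adjusted p = 0.015).

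Death receptors and inhibitors of killing formed a further list, of which 6 of 7 passed the filter, FAS through the parental DAC libraries alone. The other 5 all rose with DAC in parental cells, with a median log2 fold change of 0.36, where 31.3% of the genes that reached 1 FPKM in more than 1 group rose. They ranged from 0.19 for the TRAIL receptor TNFRSF10A to 0.56 for CFLAR, an inhibitor of death receptor signalling. With FAS included the count of 6 was 3 without parental DMSO replicate 1 or 2 or without parental DAC replicate 1, and 2 under quantile normalization. In resistant cells with DAC, the decoy receptor TNFRSF10D (0.70) and TNFRSF10B (0.22) rose, beside 5.88% of all genes, and TNFRSF10B lost its call without any 1 of the 4 resistant libraries. Between the lines in DMSO, 2 of the 6 were higher and 4 lower in resistant cells, beside 31.3% and 26.2% of all genes. Without FAS, which was under 1 FPKM in both DMSO groups, 2 of 5 were higher and 3 lower. Of the genes that reached 1 FPKM in more than 1 group, 32.8% were higher and 26.2% lower. CFLAR (−1.08) and TNFRSF10C (−0.65) were lower, and TNFRSF10D (0.48) and TNFRSF10A (0.38) higher. TNFRSF10C was a low gene close to the filter of 1 FPKM, so that its call supports no direction. SERPINB9, which blocks granzyme B, had at most 13 reads in any library.

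The receptors that read these ligands are carried mainly by lymphocytes, and KLRK1, which encodes NKG2D, had 0 reads in all 8 libraries. TIGIT, CD96 and PVRIG were under the filter. HCST, the adaptor of NKG2D, and the receptor gene CD226 passed it, CD226 through the parental DAC libraries alone. They were at 2.99 and 0.148 FPKM on average in parental DMSO and 6.55 and 1.05 FPKM in parental DAC libraries. The log2 fold change of HCST in resistant against parental cells was −1.18 with DMSO and −2.18 with DAC. HCST passed the filter only through parental libraries, so that its lower values in resistant cells support no direction.

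For each member, the 2 genes with the most similar levels over the 8 libraries were looked up among the 14899 tested, as a description with no test. The libraries form 4 groups, which fix most of such a correlation. MICA was most like C6orf89 and CCDC43 (Pearson's r = 0.9957 for both), and its r with MICB was 0.886. MICB was most like ZNF772 (0.9934) and ENSG00000258732 (0.9928), which like it were higher in resistant cells and, less so, with DAC in parental cells. ULBP1 was most like THAP10 (0.9918), which went from 9.65 to 3.41 FPKM with DAC in parental cells, and SEPHS1 (0.9884). NECTIN2 was most like PGAP6 (0.9931) and IER3 (0.993). IER3 went from 0.132 to 8.93 FPKM with DAC in parental cells. ULBP1 and NECTIN2 had an r of −0.969 with each other. ULBP2 was most like ENSG00000277978 (0.9831) and MRPL34 (0.967), ULBP3 like ENSG00000277744 (0.9737) and ENSG00000226179 (0.971), and PVR like RBM8A (0.9398) and ENSG00000251017 (0.9381).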

How the data were processed

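The study trimmed reads with Cutadapt 1.9.1, aligned them to hg38 with HISAT2 2.1.0 and counted them with HTSeq 0.13.5, beside SAMtools 1.6, per the submitters' processing notes. The authors deposited FPKM values multiplied by 1000 for 60664 genes and 1264 repeat families, and the latter were not used here. Dividing by 1000 and solving for whole reads, within 0.01 of a read, gave 34894 genes by exon length, 4697 by steps between libraries and 1 approximately, out of 39592 above 0. These reads served for depth and for voom only. FPKM of genes at 1 or more in at least 2 of 8 libraries (14899) were put on a log2(FPKM + 1) scale. The limma package (3.58.1, under R 4.3.3) fitted the means of the 4 groups together and moderated each gene's variance toward a mean-variance trend, with 2.5 prior and 4 residual degrees of freedom. P-values were Benjamini-Hochberg adjusted over all genes tested, and a call needed an adjusted p under 0.05. With 2 libraries against 2, an exact permutation test cannot go below p = 0.333, so none was used. The members and lists were chosen with earlier results of these data known, and members and lists carry no test of their own. From each list, up to 4 called genes with the largest change per comparison were named, beside those a sentence needs to define the list, and 2 listed genes are not reported here. Sequences came from RefSeq (GRCh38.p14) and positions from the GENCODE annotation. Alternatives were another pseudocount, other filters, TPM, quantile and upper-quartile scaling, a replicate block, only the compared libraries, variances not moderated, a rule of p and fold change, voom, and leaving out each library. List counts were also taken without genes at 1 FPKM or more in libraries of only 1 group (878 of those tested), a step added after the data were seen. Depth limits low genes most: ULBP3 rested on 60 to 130 reads.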

Additional observations from a re-analysis of the deposited data

Results flagged for a closer look

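The DAC effect differed between resistant and parental cells for 5 members by a test of the difference itself (limma, interaction term). It was higher in resistant cells for ULBP1 (1.10 on the log2 scale) and PVR (0.42), and lower for NECTIN2 (−1.0), ULBP2 (−0.96) and MICB (−0.40). Only ULBP1 and NECTIN2 kept their calls without a filter, and likewise with variances not moderated. Beside 49.3% of all genes that were called, 5 of 7 members is not set apart by any test, and each group held 2 libraries, too few to look for a library far from the others.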

How the results depend on the processing

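Of 541 comparisons of a member's call with an alternative, 488 kept their direction and their side of the threshold, 40 lost a call, 13 gained one and none was reversed. The count of members called in the difference of DAC effects was 5, 2 without a filter, 2 with variances not moderated and 2 to 5 when each library was left out in turn. In resistant cells with DAC the count of 0 became 2 with a filter on a mean of 5 FPKM, 2 with voom and 0 to 1 when a library was left out. When a call needed an unadjusted p no higher than 0.01 together with a log2 change of 1 or more in size, the counts were 0 with DAC in parental cells, 2 (MICA and MICB) between the lines in DMSO, 1 (MICA) in DAC and 1 (ULBP1) for the difference, as that rule asks for larger changes. Replicate numbers did not pair the libraries (correlation of the replicate differences between groups −0.022 to 0.020), and with the replicate block the counts were 3, 0, 4, 6 and 4, MICB having lost its call in the difference (adjusted p = 0.058 in limma). The same alternatives were applied to the genes of the lists, a step added after the data were seen: 3324 of their values kept direction and side of the threshold, 369 lost a call, 48 gained one and 1 was reversed, HLA-B between the lines in DAC, at −0.185 under quantile normalization beside 0.06. The cause of the other changes was not tested. Depth limits ULBP3 and ULBP2, which rest on the fewest reads.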

Other observations

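With DAC in both lines, resistant cells had more of the other NK receptor ligands called lower than called higher, relative to parental cells. Of the 14 tested, CD86, CD80 and SLAMF7 reached 1 FPKM only in the parental DAC libraries, an arm of this comparison, and so had to be lower. Among the other 11, 3 were higher and 7 lower by limma, with a median log2 fold change of −0.61. These are 27.3% and 63.6%, beside 33.6% and 32.4% of all genes that reached 1 FPKM in more than 1 group. CLEC2D and SLAMF6, among the lower ones, passed the filter only through parental libraries, so that their calls support no direction. The CD2 ligand CD58 was lower (−1.94), and F11R, an adhesion molecule of tight junctions, was higher by 0.75. Of the 9 genes of shedding and surface processing, 7 were lower and 1 higher, beside 35.1% and 32.0% of all genes tested, 67.0% in all, with MMP9 at −5.71, TIMP1 at −1.97 and MMP14 at −1.58, and TIMP3 higher by 1.52. Among the regulators of NKG2D ligand transcription 7 were higher and 6 lower, which is 46.7% and 40.0%, with NFKB1 at −1.66, E2F3 at 0.92, CHEK2 at 0.91 and MYC at 0.87, and the count of higher genes was 4 without parental DAC replicate 1 or resistant DAC replicate 1. This comparison shares the parental DAC libraries with that of DAC against DMSO in parental cells.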
